A study of Bos taurus with 32 samples.

Results

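Interferon response genes were followed in the bovine endometrium on Day 15 of the estrous cycle, namely IFIH1, ISG15, MX1, MX2, OAS1, IRF1, IRF2, IFNAR1 and IFNAR2. These 9 genes were chosen with earlier results of these data known. All but IFIH1 were found through the symbol that the array gives for an element. The IFIH1 element carries no gene symbol on the array and was set by its probe name. Each of the 9 genes had 1 element among 15208 distinct elements on the array. All animals were non-lactating Japanese Black cows sampled in the cycle, with no conceptus in the uterus. The 4 repeat breeder (RB) cows showed estrus and had a healthy reproductive tract but had failed to conceive after at least 3 inseminations. The 4 non-RB cows had conceived within 3 inseminations, and their pregnancies had then been ended with a prostaglandin analogue and followed by further cycles before sampling. Caruncular (CAR) endometrium, the aglandular patches where the placenta attaches, was dissected first and intercaruncular (ICAR) endometrium, which holds the glands, second, from the horn ipsilateral to the corpus luteum and from the contralateral horn. This gave 8 groups of 4 single-colour arrays, 32 in all. Levels are log2 intensities minus the log2 of the 75th percentile on the same array, so that a level of 0 equals that percentile, and levels of different genes are not compared because each element has its own binding strength.

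Type I interferons bind a receptor made of the chains IFNAR1 and IFNAR2, which activates JAK kinases and STAT transcription factors and switches on a large set of interferon-stimulated genes. In ruminants the elongating conceptus secretes interferon tau around this stage, and the endometrium of pregnant animals answers with a strong rise of ISG15, MX1, MX2 and OAS1. In the cycling cows studied here the same genes were read without that signal, so the levels are those of the non-pregnant state. IFIH1 (also known as MDA5) is a cytoplasmic sensor of long double-stranded RNA, IRF1 is a transcription factor that activates interferon-responsive promoters, and IRF2 is its antagonist.

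Since a level on an array belongs to a short probe of 60 bases, the first 30 bases of the probes on which the main values rest are shown, 5′ to 3′, with no base marked.
IFIH1: ttgccgtgggaagggtgttcgagtataaat
MX1: ccccatgttttaggaacatgagtgccatac
MX2: cttggctggtccttttcttataaattcagt
OAS1: tggcatgttgagataacaacttctagaaat
ISG15: acccgctggaggaatacggcctcatgaagg
The IFIH1 probe was designed from an expressed sequence tag that the array describes only as similar to this helicase, so its identity is less certain than that of the other genes. The MX1 and MX2 probes read genes that lie next to each other, with 0 protein-coding genes between them in the reference table of cattle genes. The OAS1 probe carries the accession of OAS1X, and cattle have a near copy, OAS1Z, directly beside it, so signal from both copies cannot be told apart with certainty. A separate OAS1Z element on the array was well above background on 4 of 32 arrays. None of the 9 genes shared its probe sequence with another element. All of them were well above background on 32 of 32 arrays, except IFNAR1 on 31.

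The 75th percentile of the arrays ranged from 1165 to 4857 intensity units, and 74.3% to 85.8% of the elements of an array were well above background. Arrays with the same number within a group were taken as the same cow, which the sources do not state, and 2 arrays went against that reading. For each pair of cows, the elements were found that separated them by more than 1.5 log2 units in 3 compartments, and their direction was read in the fourth. Over the 101 pairs and compartments with at least 20 such elements, the median share that kept its direction was 97.7%. For the ICAR contralateral arrays labelled RB 1 and non-RB 2, 36 elements separated the cows elsewhere, and 27 of them had the opposite direction in this compartment, so that 25% kept it. The next lowest share was 61.0%, for the arrays labelled non-RB 1 and non-RB 2 in this compartment. That of non-RB 1 had the lowest 75th percentile of all arrays, 1165, and the lowest share well above background, 74.3%. IFIH1 was among the 36 elements, and without it 26 of 35 were opposite. No array was moved to another group, and the results that these 2 arrays touch are given with and without them.

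**Figure D1:**
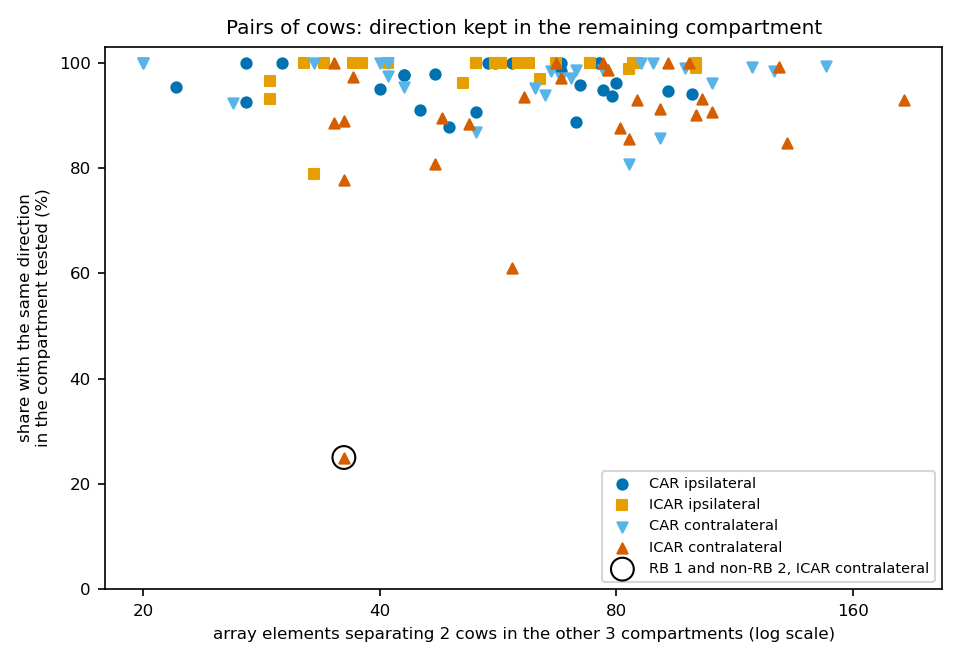
Each point is a pair of cows in 1 of the 4 compartments. The horizontal axis gives, on a log scale, the number of array elements that separate the pair by more than 1.5 log2 units in the other 3 compartments, and the vertical axis the percentage of these with the same direction in the compartment tested; the circled pair lies at 25%, against a median of 97.7%.

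IFIH1 was lower in RB than in non-RB cows on average in all 4 compartments, but cows of the same group differed widely, and no difference passed the test. In ICAR of the contralateral horn the log2 levels were -2.01, -1.80, -0.75 and -3.77 in non-RB cows 1 to 4 and -3.90, -4.50, -4.22 and -3.75 in RB cows 1 to 4. The arrays of non-RB 1, 2 and 3 lay above all RB arrays, and the array labelled non-RB 4 lay within their range. The difference was -2.01 ± 0.56 (SE, n = 4 against 4), a 4.04-fold lower intensity, with an unadjusted p of 0.0059 and an adjusted p of 1.0 in limma, and a two-sided exact permutation test gave p = 0.057. It was the only gene of the 9 with an unadjusted p under 0.05 in any RB comparison. Without the 2 arrays against their labels the difference was -1.99 (n = 3 against 3, exact permutation p = 0.2, where 0.1 is the smallest p possible). The study reported IFIH1 as the known gene with the largest decrease in this compartment. It also listed IFIH1 as lower in RB cows over the whole uterus, in a test that counted every array separately. For this compartment it named IFIH1 among the genes whose array result was not borne out by quantitative PCR on RNA of the same samples.

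In the other compartments the groups overlapped more widely. In CAR of the ipsilateral horn IFIH1 levels were -2.13, -4.01, -0.79 and -3.43 in non-RB cows 1 to 4 and -1.86, -4.46, -4.31 and -3.26 in RB cows 1 to 4, a difference of -0.88 ± 0.75 (SE). In ICAR of that horn they were -1.80, -3.61, -0.84 and -3.54 against -1.57, -4.35, -3.98 and -3.64, a difference of -0.94 ± 0.76. In CAR of the contralateral horn they were -1.64, -4.51, -0.80 and -3.84 against -1.63, -4.84, -4.19 and -3.86, a difference of -0.93 ± 0.93. In each of these 3 compartments RB 1 lay with the high non-RB cows 1 and 3, and non-RB 2 and 4 lay with the low RB cows. The exact permutation p was 0.37, 0.26 and 0.37. Without non-RB 3 these differences shrank to -0.28, -0.40 and -0.30, and without RB 1 they grew to -1.42, -1.54 and -1.60. Averaged over the whole uterus the difference was -1.19 ± 0.69 (exact permutation p = 0.2), and -0.91 ± 0.80 without the 2 arrays.

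The order of the 8 group means of IFIH1 ran from -2.08 ± 1.25 (SD, n = 4) in ICAR contralateral non-RB to -4.10 ± 0.33 in ICAR contralateral RB. Between them came the non-RB groups of ICAR ipsilateral at -2.45 ± 1.36, CAR ipsilateral at -2.59 ± 1.44 and CAR contralateral at -2.70 ± 1.76. The RB groups followed with ICAR ipsilateral at -3.38 ± 1.24, CAR ipsilateral at -3.47 ± 1.20 and CAR contralateral at -3.63 ± 1.39. None of the 7 neighbouring means in this order differed by more than the larger of their SDs, and this held for each of the other 8 genes. All non-RB means stood above all RB means, although the 4 compartments come from the same cows and are not separate evidence.

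Within a cow, IFIH1 was nearly constant. The 4 arrays of non-RB 3 lay between -0.84 and -0.75, with an SD of 0.039 log2 units, and those of non-RB 1 lay between -2.13 and -1.64. RB 2, RB 3, RB 4 and non-RB 4 had cow means of -4.54, -4.17, -3.63 and -3.65, each with an SD of at most 0.26. Only RB 1 and non-RB 2 had SDs above 1, at 1.12 and 1.18, and without the 2 arrays against their labels these fell to 0.15 and 0.45. The high cows were thus non-RB 1, non-RB 3 and RB 1, and the low cows were 3 RB and 2 non-RB cows, with the 2 arrays set aside. Leaving out non-RB 3, the highest cow, moved the whole-uterus difference from -1.19 to -0.64, and leaving out RB 1 moved it to -1.66.

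**Figure D2:**
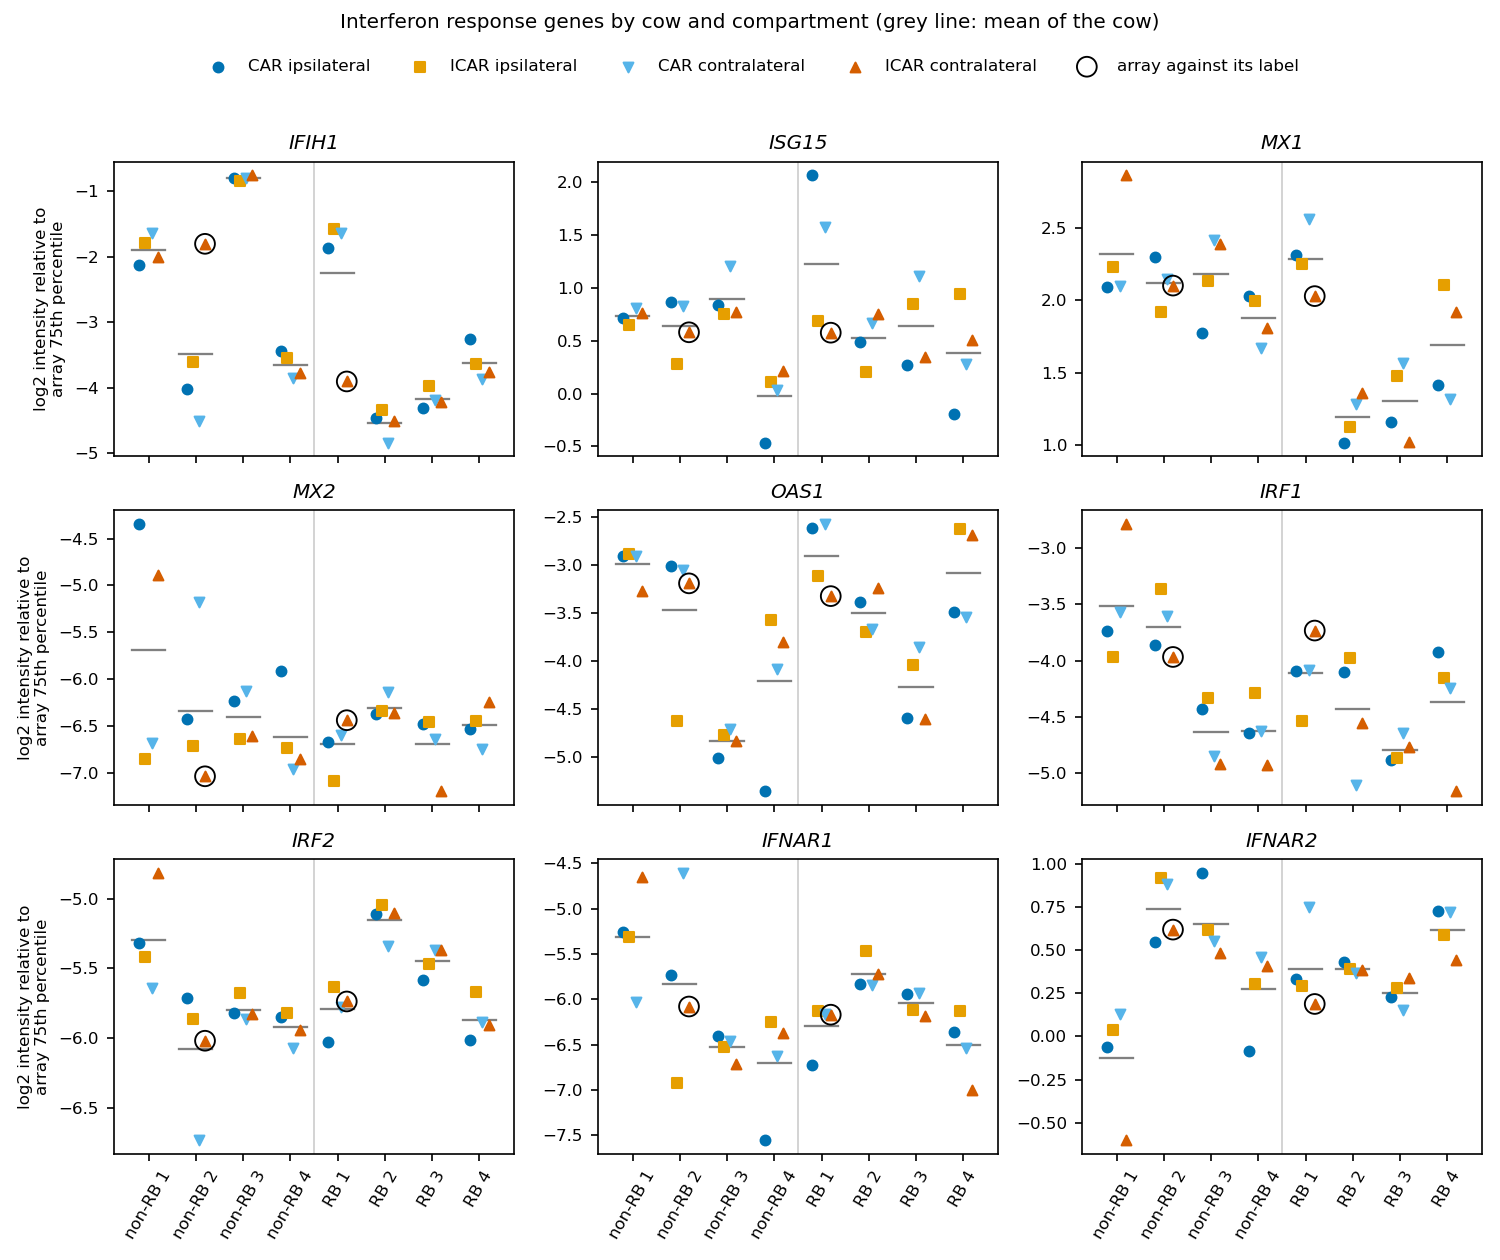
Log2 level scaled to the array's 75th percentile (vertical axis) of each gene on each array, by cow (horizontal axis), with the 4 compartments as symbols, the mean of each cow as a grey line and the 2 arrays against their labels circled. The IFIH1 points of a cow lie close together while cows differ, from -0.79 for non-RB 3 to -4.54 for RB 2, and MX1 is lowest in RB 2 and RB 3.

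The share of the spread over the 32 arrays that lay between the 8 cows was 84.2% for IFIH1, against a median of 43.1% over the 12384 elements with values on all arrays and well above background on at least 8 of them, and 99.5% of these elements had a lower share. Without the 2 arrays it was 97.9%, with 99.97% of elements lower, although IFIH1 is itself among the elements that set these arrays apart. The spread itself was also wide, with an SD over arrays of 1.32 log2 units against a median of 0.50. The RB and non-RB groups accounted for 20.9% of the IFIH1 spread and the compartments for 0.49%. For MX1 the groups accounted for 28.8%, and the median over the same elements was 2.73%. ISG15, IFNAR1 and IFNAR2 lay below that median. Each cow belongs to 1 group, so the share between cows contains the share between groups and cannot be smaller. MX1 came next among the 9 genes with 76.0% between cows, then OAS1 with 71.1%, IRF2 with 70.5%, IFNAR2 with 68.4% and IRF1 with 62.9%. IFNAR1 and ISG15 had 52.8% and 51.6%, and MX2, at 26.1%, was the only gene of the 9 under the median.

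**Figure D3:**
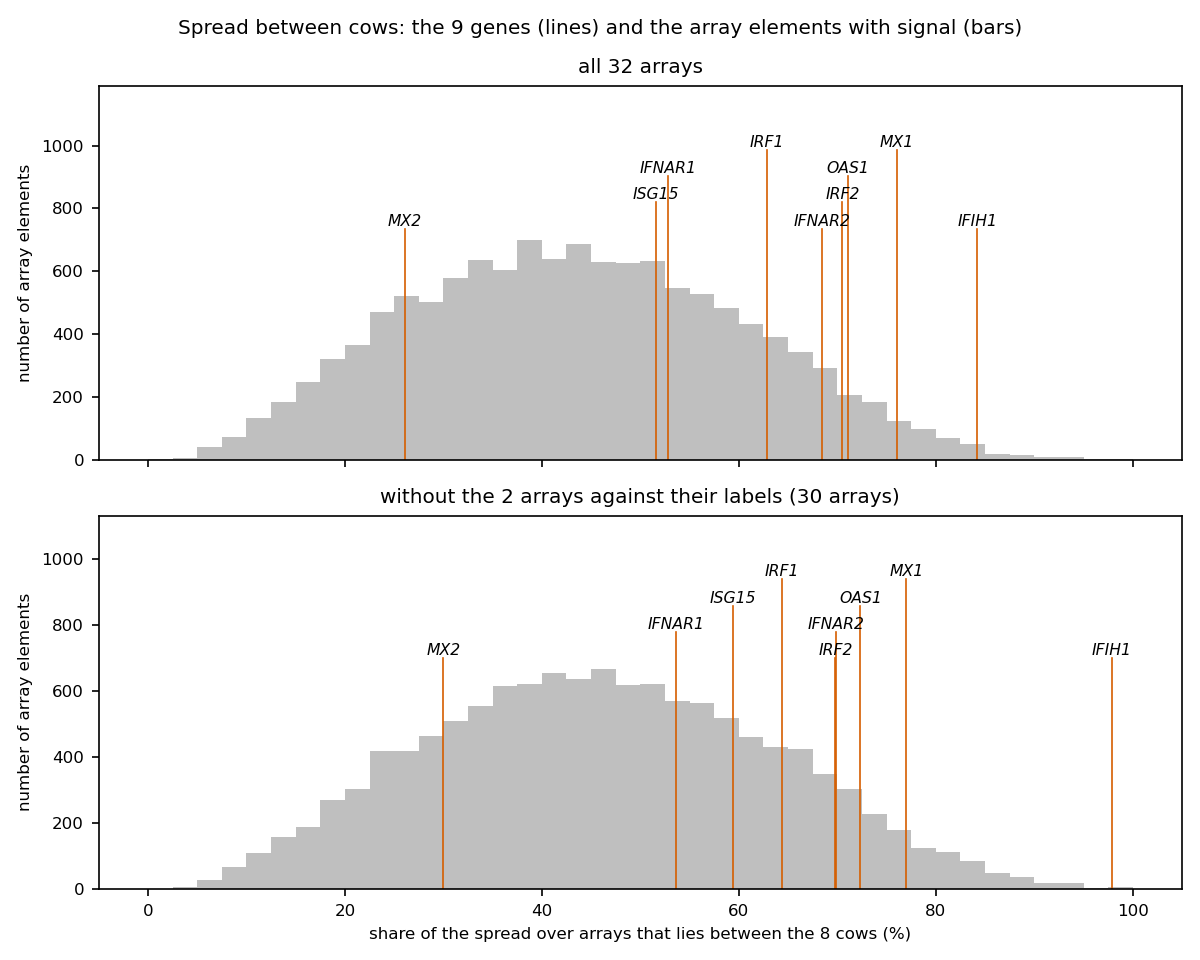
Histograms of the percentage of the spread over arrays that lies between the 8 cows, for the array elements with values on all arrays and well above background on at least 8 of them (bars, vertical axis in elements), with the 9 genes as lines, on all 32 arrays (top) and on 30 arrays without the 2 against their labels (bottom). IFIH1 lies at 84.2% and 97.9%, at the upper end of these elements, and MX2 lies at 26.1% in the upper panel.

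Slides held few cows each. All arrays of RB 2 and RB 3 were on slide 2, those of RB 4 on slide 6 and those of non-RB 4 on slide 7, so for these cows the slide and the cow cannot be told apart. The arrays of non-RB 1 and of non-RB 2 were spread over slides 1, 3 and 8. Those of non-RB 1 kept their IFIH1 level, and those of non-RB 2 ranged from -4.51 to -1.80, the latter on the array against its label. Slide 6 also held 3 arrays of non-RB 3, and on it the IFIH1 difference of RB 4 from non-RB 3 was -2.80 in ICAR ipsilateral, -3.06 in CAR contralateral and -3.01 in ICAR contralateral. On slide 8 RB 1 differed by 2.04 from non-RB 2 in ICAR ipsilateral, by 0.01 from non-RB 1 in CAR contralateral and by -2.10 in ICAR contralateral, where both arrays are those against their labels. Within scan sessions, which are arrays scanned in the same calendar month, the IFIH1 difference was -0.47 and 0.18 in CAR ipsilateral and -2.37, -1.45 and 2.04 in ICAR ipsilateral. In the contralateral horn it was -1.54 and 0.01 in CAR and -1.50 and -2.10 in ICAR. The within-slide and within-session values thus differed in sign, and each rests on 1 to 3 arrays per group.

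MX1, a dynamin-like GTPase that blocks virus replication and is a standard marker of interferon tau in blood and endometrium, was lower in RB cows on average in all 4 compartments, again without passing the test. In CAR ipsilateral its levels were 2.09, 2.30, 1.77 and 2.03 in non-RB cows 1 to 4 and 2.31, 1.02, 1.16 and 1.41 in RB cows 1 to 4, a difference of -0.57 ± 0.32 (SE, n = 4 against 4, exact permutation p = 0.14). In ICAR contralateral they were 2.86, 2.10, 2.39 and 1.81 against 2.03, 1.36, 1.02 and 1.92, a difference of -0.71 ± 0.32 (exact permutation p = 0.11). The 2.86 of non-RB 1 came from an array of slide 1, on which repeated GAPDH spots had an SD of 0.87 log2 units. This difference was -0.52 without non-RB 1 and -0.92 without the 2 arrays against their labels. RB 1 was the highest of the 8 cows in CAR ipsilateral, just above non-RB 2, and lay among the non-RB cows in ICAR contralateral, while RB 2 and RB 3 lay below all non-RB cows in both.

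ICAR ipsilateral gave MX1 levels of 2.22, 1.92, 2.13 and 1.99 against 2.25, 1.13, 1.48 and 2.10, a difference of -0.33 ± 0.28 (exact permutation p = 0.34). CAR contralateral gave 2.10, 2.15, 2.42 and 1.67 against 2.56, 1.29, 1.57 and 1.32, a difference of -0.40 ± 0.33 (exact permutation p = 0.34). RB 2 and RB 3 had whole-uterus means of 1.20 and 1.31, RB 4 of 1.69 and RB 1 of 2.29, while non-RB means lay between 1.87 and 2.32. The whole-uterus difference was -0.50 ± 0.25 (exact permutation p = 0.11), a 1.42-fold lower intensity, and it ranged from -0.72 without RB 1 to -0.36 without RB 2. In ICAR ipsilateral the difference was -0.12 without RB 2. RB 2 and RB 3 are the cows of slide 2, and with the slide as a block the ICAR ipsilateral difference of MX1 turned to 0.15. With the scan session as a block that of ICAR contralateral fell from -0.71 to -0.14.

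The MX1 group means ran from 2.29 ± 0.45 (SD, n = 4) in ICAR contralateral non-RB, which includes an array of slide 1, to 1.48 ± 0.58 in CAR ipsilateral RB. The other non-RB means were 2.08 ± 0.31 in CAR contralateral, 2.07 ± 0.14 in ICAR ipsilateral and 2.05 ± 0.22 in CAR ipsilateral. The RB means were 1.74 ± 0.53 in ICAR ipsilateral, 1.68 ± 0.60 in CAR contralateral and 1.58 ± 0.47 in ICAR contralateral. The SD was larger in RB than in non-RB cows in all 4 compartments, with the smallest gap in ICAR contralateral.

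MX1 and IFIH1 had the highest correlation among the 36 pairs of these genes, with a Pearson r of 0.67 over the 32 arrays and 0.68 without the 2 arrays. The points share cows, slides and the scaling of each array, and the value is a description. Over the same arrays ISG15 correlated with MX1 at 0.45 and with IFIH1 at 0.40, and the receptor chains IFNAR1 and IFNAR2 correlated at -0.29. The lowest pair was IRF2 with IFNAR2, at -0.60.

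**Figure D4:**
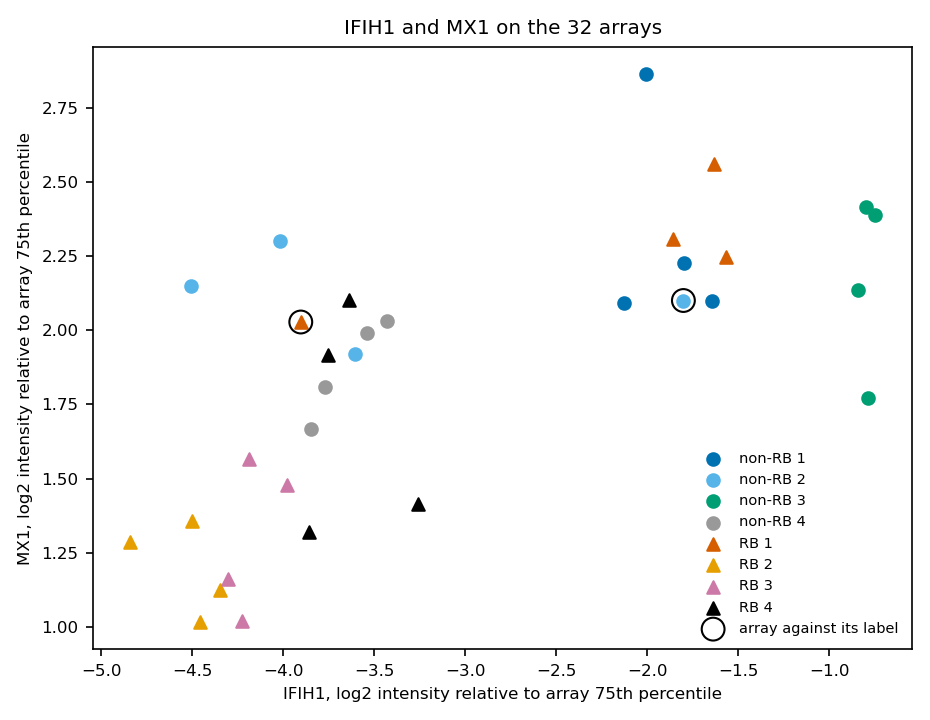
IFIH1 (horizontal axis) against MX1 (vertical axis), both as log2 level scaled to the array's 75th percentile, on each of the 32 arrays, with colours for cows, circles for non-RB and triangles for RB cows, and rings around the 2 arrays against their labels. RB 2 and RB 3 lie at the lower left, and r is 0.67 over all arrays.

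MX2, the neighbouring GTPase gene, showed a different arrangement, with single high arrays among the non-RB cows. In CAR ipsilateral its levels were -4.34, -6.42, -6.23 and -5.91 in non-RB cows 1 to 4 and -6.67, -6.38, -6.48 and -6.54 in RB cows 1 to 4. Non-RB 1 was far above the rest, non-RB 3 and non-RB 4 also lay above all RB arrays, and non-RB 2 lay within their range. The difference was -0.79 ± 0.42 (SE, exact permutation p = 0.057), and it was -0.33 without non-RB 1. The next highest MX2 levels, -4.89 in ICAR contralateral non-RB 1 and -5.18 in CAR contralateral non-RB 2, were the 2 arrays of slide 1, on which repeated GAPDH spots had SDs of 0.87 and 1.32 log2 units, against at most 0.54 on the other arrays. The MX2 differences in the other compartments were 0.15 ± 0.22 in ICAR ipsilateral, -0.29 ± 0.38 in CAR contralateral and -0.21 ± 0.48 in ICAR contralateral. They turned to 0.06 in CAR contralateral without non-RB 2 and to 0.27 in ICAR contralateral without non-RB 1. In ICAR contralateral the difference was -0.49 without the 2 arrays against their labels and 0.53 with the scan session as a block, and in ICAR ipsilateral it was -0.11 with normexp background correction.

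OAS1, which makes the oligoadenylates that activate RNase L, was the only interferon-stimulated gene of the 9 with a higher mean in RB cows in all 4 compartments, and no difference passed the test. In ICAR ipsilateral its levels were -2.89, -4.62, -4.77 and -3.57 in non-RB cows 1 to 4 and -3.11, -3.70, -4.04 and -2.63 in RB cows 1 to 4, a difference of 0.59 ± 0.47 (SE, exact permutation p = 0.34). The groups overlapped, with non-RB 1 among the highest arrays. The difference was 0.55 ± 0.62 in CAR ipsilateral, 0.28 ± 0.46 in CAR contralateral and 0.31 ± 0.49 in ICAR contralateral, and 0.43 ± 0.42 in the whole uterus. Without non-RB 3 the contralateral differences turned to -0.06 in CAR and -0.04 in ICAR, and the whole-uterus difference was 0.12. The CAR ipsilateral difference was 0.12 without non-RB 4 and 0.94 without non-RB 1, and with the slide as a block the ICAR ipsilateral difference rose to 1.82. Non-RB 3, the cow with the highest IFIH1, had the lowest OAS1, with a mean of -4.83 and an SD of 0.13 over its 4 arrays. The group means of OAS1 ran from -3.37 ± 0.63 (SD, n = 4) in ICAR ipsilateral RB to -4.07 ± 1.29 in CAR ipsilateral non-RB.

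ISG15, a ubiquitin-like protein that is joined to other proteins in the interferon response, differed little. Its group means ran from 0.91 ± 0.56 (SD, n = 4) in CAR contralateral RB to 0.45 ± 0.30 in ICAR ipsilateral non-RB. The RB difference was 0.17 ± 0.50 (SE) in CAR ipsilateral, 0.22 ± 0.25 in ICAR ipsilateral, 0.19 ± 0.35 in CAR contralateral and -0.04 ± 0.22 in ICAR contralateral. The direction depended on single cows, since the value turned to -0.30 in CAR ipsilateral without RB 1 and to -0.04 in CAR contralateral without non-RB 4, and was -0.08 in CAR contralateral with the slide as a block. The cow means were highest in RB 1 at 1.23, with a level of 2.07 in CAR ipsilateral, and lowest in non-RB 4 at -0.03. The whole-uterus difference was 0.14, with a 95% confidence interval from -0.44 to 0.71 log2 units, and it turned to -0.06 without non-RB 4.

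Of the transcription factors, IRF1 had a lower and IRF2 a higher mean in RB cows in the whole uterus, by -0.31 ± 0.29 and 0.21 ± 0.23 (SE). The IRF1 difference was negative in all 4 compartments, from -0.41 ± 0.51 in ICAR contralateral, where it was 0.05 without non-RB 1, to -0.08 ± 0.32 in CAR ipsilateral, where it was 0.13 without RB 3, and in CAR contralateral it turned to 0.06 with the scan session as a block. Its group means ran from -3.99 ± 0.44 (SD, n = 4) in ICAR ipsilateral non-RB to -4.55 ± 0.60 in ICAR contralateral RB. The highest IRF1 level, -2.79 in ICAR contralateral non-RB 1, was on an array of slide 1. IRF2 differed most in CAR contralateral, by 0.48 ± 0.29 (SE, exact permutation p = 0.14), a value that was 0.27 without non-RB 2 and turned to -0.08 with the slide as a block. Its whole-uterus difference turned to -0.02 with normexp background correction. The IRF2 group means ran from -5.45 ± 0.29 (SD) in ICAR ipsilateral RB to -6.08 ± 0.47 in CAR contralateral non-RB.

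The receptor chains did not differ detectably. The whole-uterus difference was -0.05 ± 0.32 (SE) for IFNAR1 and 0.03 ± 0.22 for IFNAR2, with 95% confidence intervals from -0.76 to 0.67 and from -0.46 to 0.51 log2 units, and without non-RB 1 they turned to 0.21 and -0.14. The group means of IFNAR1 ran from -5.93 ± 0.92 (SD, n = 4) in CAR contralateral non-RB to -6.27 ± 0.53 in ICAR contralateral RB. The highest IFNAR1 levels, -4.60 in CAR contralateral non-RB 2 and -4.65 in ICAR contralateral non-RB 1, were on the 2 arrays of slide 1. Those of IFNAR2 ran from 0.51 ± 0.31 in CAR contralateral non-RB to 0.23 ± 0.56 in ICAR contralateral non-RB.

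Across the 9 genes, 0 passed an adjusted p of 0.05 in limma in any of the 4 compartments or in the whole uterus. The same share of all elements tested was 0% in each of these comparisons, so these counts do not set the genes apart. At an unadjusted p under 0.05 there was 1 gene, IFIH1 in ICAR contralateral, whether by limma or by the methods' t-test, and 0 in the other compartments and the whole uterus. For the whole uterus both tests took 1 mean per cow, while the study counted every array separately and listed IFIH1 as lower there. In limma an unadjusted p under 0.05 took 3.41% of all elements in CAR ipsilateral, 3.69% in ICAR ipsilateral, 1.74% in CAR contralateral, 1.60% in ICAR contralateral and 2.22% in the whole uterus. The levels of RB and non-RB cows did not separate fully for any of the 9 genes, where 1.97%, 2.23%, 1.37%, 1.48% and 1.19% of all elements had groups that did not overlap in these comparisons. The median difference of the 9 genes was -0.01 in CAR ipsilateral, 0.15 in ICAR ipsilateral, -0.19 in CAR contralateral and -0.21 in ICAR contralateral, beside medians of all elements of 0.02, -0.03, 0.00 and 0.02. With 4 cows per group the smallest exact p is 0.029, and the bulk tissue cannot tell fewer cells of a type from less RNA per cell.

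**Figure D5:**
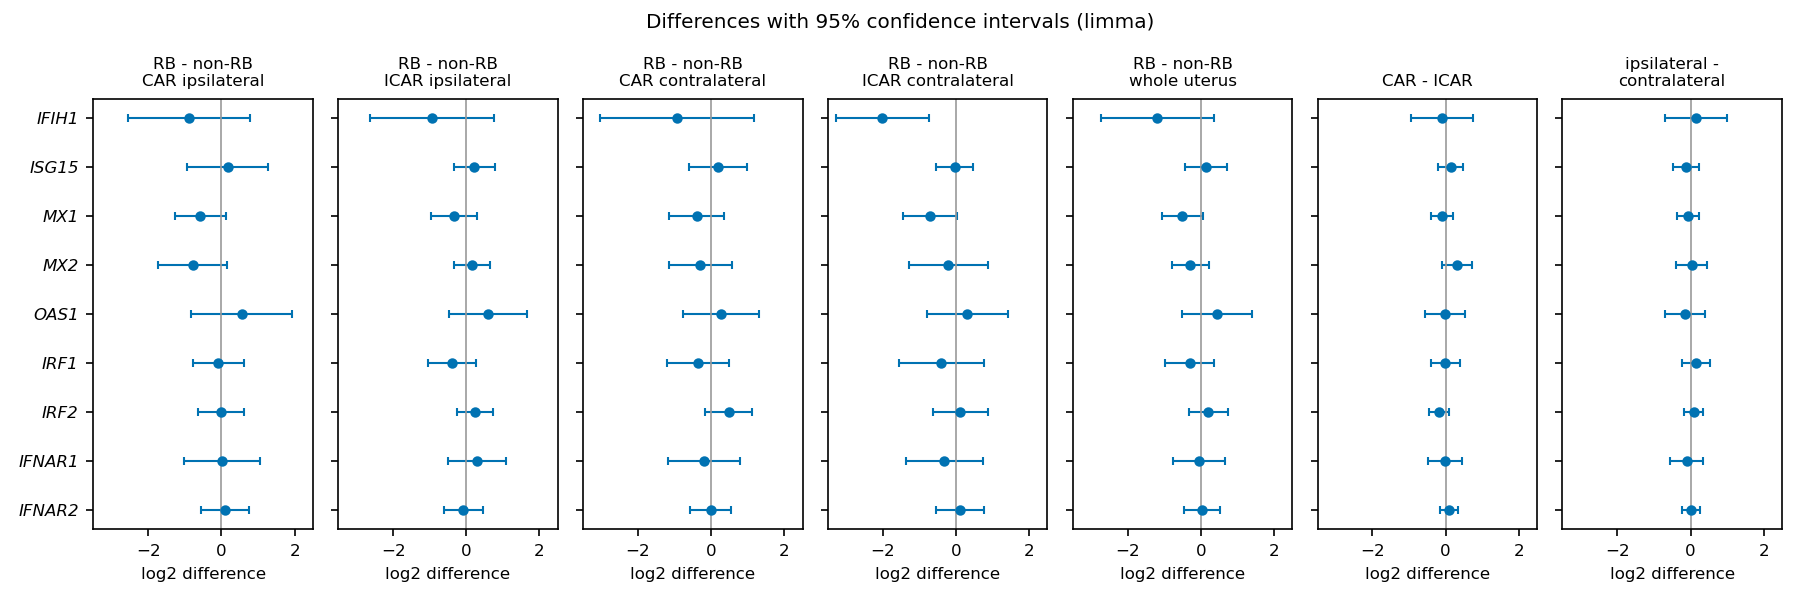
Log2 differences of the 9 genes (horizontal axes) with their 95% confidence intervals from limma, for RB minus non-RB in each compartment and in the whole uterus and for CAR minus ICAR and the ipsilateral minus the contralateral horn. The interval of IFIH1 in ICAR contralateral, from -3.28 to -0.74, is the only one that does not include 0, and its adjusted p is 1.0.

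No difference of the 9 genes between CAR and ICAR passed the test. The largest difference was that of MX2, 0.31 ± 0.21 (SE), with means of -6.25 ± 0.66 (SD, n = 16) in CAR and -6.56 ± 0.53 in ICAR, and CAR was higher in 9 of 16 pairs of arrays of the same cow and horn. IRF2 was lower in CAR by -0.18 ± 0.13 and higher there in 3 of 16 pairs. Averaged over the horns it was lower in CAR in all 8 cows, by differences between -0.37 and -0.06. Without the 2 arrays of slide 1 the IRF2 difference shrank to -0.06. Those arrays held its lowest level in CAR, -6.73, and its highest in ICAR, -4.81. IFIH1 differed by -0.10 ± 0.41, MX1 by -0.10 ± 0.15 and ISG15 by 0.13 ± 0.17. OAS1, IRF1, IFNAR1 and IFNAR2 differed by -0.03, -0.01, -0.01 and 0.09. Of the 9 genes, 0 passed the adjusted test in limma and 0 had an unadjusted p under 0.05 without a block, while 1.35% of all elements passed the adjusted test. The number of elements that passed, 174, fell to 0 when RB 1, RB 2, RB 4, non-RB 1, non-RB 3 or non-RB 4 was left out, and was 915 without RB 3 and 717 without non-RB 2. With the cow as a replicate block 8.41% of elements passed it and still 0 of the 9 genes, and IRF2 had an unadjusted p of 0.046 and an adjusted p of 0.20 in limma, where 23.4% of all elements had an unadjusted p under 0.05.

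The ipsilateral horn, on the side of the ovary with the corpus luteum, and the contralateral horn were compared in the same way. The differences ran from -0.15 ± 0.27 (SE) for OAS1 to 0.15 ± 0.41 for IFIH1, and IFIH1 was higher in the ipsilateral horn in 11 of 16 pairs. In limma 0 of the 9 genes passed the adjusted test and 0 had an unadjusted p under 0.05, beside 0% of all elements at an adjusted p under 0.05 and 1.36% at the unadjusted one.

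The dependence of the RB difference on the compartment or the horn was read from differences taken inside each cow, and 0 of the 9 genes passed the adjusted test in limma in either case, as did 0% of all elements. At an unadjusted p under 0.05 there were again 0 genes, beside 0.88% of all elements for the compartment and 5.95% for the horn. The RB difference of IFIH1 in CAR minus that in ICAR was 0.57 ± 0.42 (SE), and 0.05 ± 0.23 without the 2 arrays against their labels. Between the ipsilateral and the contralateral horn it was 0.57 ± 0.27 (exact permutation p = 0.086), and -0.06 ± 0.24 without them. Both values of IFIH1 thus rested on these 2 arrays. For MX2 CAR exceeded ICAR by 0.36, 1.08, 0.45 and 0.36 in non-RB cows 1 to 4 and by 0.13, 0.10, 0.27 and -0.30 in RB cows 1 to 4, and these values did not overlap. The difference of -0.51 ± 0.25 had an exact permutation p of 0.029, the smallest possible, and of 0.51 after adjustment over the 18 tests of this kind. Groups did not overlap in 0.704% of all elements for the compartment and in 3.89% for the horn, where 0 of the 9 genes were among them.

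Further genes of the pathway were read from lists of ligands, receptors and JAK kinases, STAT and IRF factors, nucleic acid sensors, antiviral effectors, ISG15 conjugation, chemokines, peptide loading and negative regulators, which include the 9 genes. In limma 0 of 64 elements passed the adjusted test in CAR ipsilateral, 0 of 63 in ICAR ipsilateral, 0 of 66 in CAR contralateral, 0 of 65 in ICAR contralateral and 0 of 63 in the whole uterus. Their median differences were -0.03, -0.08, -0.02, -0.01 and -0.02 log2 units. At an unadjusted p under 0.05 there were 0, 3, 0, 2 and 2 elements, where 3.41%, 3.69%, 1.74%, 1.60% and 2.22% of all elements were, so these counts do not set the pathway apart. Beside IFIH1 these were DHX58, a helicase related to IFIH1, at -0.52 ± 0.21 (SE), the chemokine CCL8 at 0.75 ± 0.30 and the nuclease SAMHD1 at 0.99 ± 0.42 in ICAR ipsilateral. The thiol reductase IFI30 differed by -0.55 ± 0.23 in ICAR contralateral and by -0.51 ± 0.21 in the whole uterus, where an interferon alpha element differed by -0.47 ± 0.19. Their adjusted p-values in limma were 0.86 in ICAR ipsilateral and 1.0 elsewhere. For the horns 0 of 63 elements had an adjusted or unadjusted p under 0.05.

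Between CAR and ICAR 0 of 63 pathway elements passed the adjusted test, and 7 had an unadjusted p under 0.05, all with the higher mean in CAR, where 8.69% of all elements were higher and 7.55% lower at this threshold. IFIT3, which binds viral RNA complexes, had a lowest, median and highest level of -5.39, -4.05 and -3.28 in CAR and of -8.66, -4.86 and -3.20 in ICAR, a difference of 0.83 ± 0.33 (SE). It was well above background on 31 arrays, and the level of -8.66, which the difference includes, was not. The chemokine CXCL10 had levels of -2.26, -0.56 and 0.26 in CAR and of -1.71, -1.07 and -0.33 in ICAR, a difference of 0.40 ± 0.18. The ranges of both genes overlapped between CAR and ICAR. The complement genes SERPING1 and C1R differed by 0.41 ± 0.14 and 0.48 ± 0.17, CCL2 by 0.56 ± 0.25, IFIT5 by 0.30 ± 0.12 and IFITM3 by 0.20 ± 0.10, and the adjusted p-values of the 7 lay between 0.11 and 0.30 in limma. With the cow as a replicate block C1R alone of the 63 passed, at an adjusted p of 0.039 in limma. In that fit 8.41% of all elements passed, so this count does not set the pathway apart.

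Ligands of the pathway were near or below background, as far as the array reads them. IFNB1 was well above background on 0 of 32 arrays, IFNAA on 2, IFNW1 on 3 and IFNG, the type II interferon, on 7. An interferon alpha element was well above background on 26 arrays, with levels from -8.93 to -6.01. The element for interferon tau, the pregnancy signal of the conceptus, was well above background on 1 of 32 arrays, ICAR ipsilateral non-RB 4, at -6.02 against a median of -9.71.

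Defining markers of endometrium were present, with the epithelial keratins KRT8 and KRT19, the stromal DCN and LUM and the progesterone receptor PGR well above background on 32 of 32 arrays, while the 2 ESR1 elements were so on 29 and 8. The glandular list, with 5 elements, had a median level of -0.91 in CAR and -0.24 in ICAR. In limma without a block 2 of its elements passed the adjusted test, beside 1.35% of all elements. These were the epithelial factors SPDEF at -1.92 ± 0.40 (SE) and FOXA2 at -1.69 ± 0.38 in CAR minus ICAR. The rest of the list had the opposite sign and did not pass, with SPP1 at 0.21, SERPINA14 at 0.07 and CST6 at 0.05. The calls of SPDEF and FOXA2 were lost when any cow other than RB 3 and non-RB 2 was left out. Leukocyte markers, 17 elements with CD4 and ITGAM well above background on 0 arrays, had a mean level between -4.20 and -3.60 on RB arrays and between -4.36 and -3.28 on non-RB arrays. The level of this list correlated with IFIH1 at 0.08 and with MX1 at -0.18 over the 32 arrays, which share cows, slides and array scaling. Markers of B and plasma cells, 5 elements with POU2AF1 well above background on 1 array, lay between -3.94 and -1.02 on RB and between -4.40 and -1.10 on non-RB arrays, and correlated with IFIH1 at -0.45 and with MX1 at -0.46. In RB 2 and RB 3, the cows with the lowest MX1, the B and plasma cell list had mean levels of -1.97 and -1.35, and in the other cows its means lay between -3.56 and -1.47. The epithelial list, 6 elements, had means of 0.80 and 0.66 in RB 2 and RB 3 and between 0.81 and 1.95 in the other cows. The stromal list, 7 elements, had means of 1.27 and 1.17 in RB 2 and RB 3 and between 0.53 and 1.24 in the other cows. The correlation with MX1 was 0.50 for the epithelial and -0.51 for the stromal list, and that with IFIH1 was 0.27 and -0.14. The list of plasmacytoid dendritic cells, 3 elements, held only TCF4 and GZMB, since CLEC4C, IL3RA and LILRA4 had no element on the array. GZMB is also in the leukocyte list, so these elements cannot be read as that cell type alone. Their level correlated with IFIH1 at -0.55 and with MX1 at -0.32. The median RB minus non-RB difference of the 4 B and plasma cell elements tested was 1.34 in CAR ipsilateral, 1.11 in ICAR ipsilateral, 1.33 in CAR contralateral, 0.78 in ICAR contralateral and 1.15 in the whole uterus. For the 6 epithelial elements it was -0.40, -0.04, -0.34, -0.42 and -0.42, with 0 of 6 positive in ICAR contralateral, and for the 7 stromal elements it was 0.29 in ICAR contralateral, with 7 of 7 positive. Of all 12980 elements tested there, 6842 were positive, and this compartment holds the 2 arrays against their labels. Over all compartments the stromal list overlapped between the groups. Its median level was 1.07 on RB arrays, from 0.17 to 1.69, and 0.94 on non-RB arrays, from -0.07 to 1.47. In limma 0 elements of these lists passed the adjusted test in any of the 5 comparisons. The part of these cell types in the MX1 and IFIH1 values was not tested.

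The named elements whose pattern over the 32 arrays was most like that of a gene were mostly outside the interferon pathway. For IFIH1 they were MSR1, a macrophage scavenger receptor, with a Pearson r of 0.78, TKDP5 with 0.74 and FNTA with 0.74. For MX1 they were HSPBAP1 with 0.77, C9orf91 with 0.77 and NUP88 with 0.76, and for OAS1 MRPL44 with 0.71, MKP-1 with 0.70 and MRPL12 with 0.68. The highest values for ISG15 were 0.61 with FAU, 0.60 with BCS1L and 0.59 with P4HA3, and for MX2 0.72 with THRSP, 0.68 with SLC29A1 and 0.67 with IL1RN. IRF1 was most like AKT1, VARS2 and BCDIN3, all with 0.90 to 0.91, IRF2 like rhamm with 0.87, TIMM50 with 0.79 and UGP2 with 0.79. IFNAR1 reached 0.96 with RANBP6, 0.93 with UBE2D3 and 0.90 with TXNDC4, and IFNAR2 0.80 with NR2F1, 0.80 with MYLK and 0.79 with AOC3. These are the highest of about 3069 named elements per gene, and they share cows, slides and array scaling.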

How the data were processed

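Endometrial RNA of 4 RB and 4 non-RB cows was measured on 32 arrays, and groups and replicate numbers came from the labels. The 9 genes and the gene lists were chosen with earlier results of these data known. The authors deposited scanner output of Agilent Feature Extraction 9.5, named in the submitters' processing notes, with a background-subtracted intensity per spot that was not scaled between arrays. A series table of log2 values, also deposited, equals these intensities in log2 after division by each array's 75th percentile, up to a constant. The genome build is not given in the sources used here, and no coordinates were used.

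Control spots and spots with outlier flags were left out, and each intensity was divided by its array's 75th percentile before taking log2. A single compartment was tested on elements well above background on at least 2 of 8 arrays and with 3 or more values in either group, and comparisons over the whole series on elements reaching 8 of 32. RB and non-RB cows were compared by limma 3.58.1 in R 4.3.3, with Benjamini-Hochberg adjustment over all elements tested, and by two-sided exact permutation of 4 against 4 cows (scipy 1.17.1). The study's methods name an unpaired t-test, called the methods' t-test here. For the whole uterus it was run here on cow means, whereas the study's own test took every array separately. The whole uterus used the mean of the 4 arrays of a cow, and CAR against ICAR and the horns used the 32 arrays with the other factors as covariates. The fitting was tested on simulated data. P-values of the RB comparisons measure the spread between these cows, and precision is limited by how few arrays a group has. The main fits of CAR against ICAR and of the horns had no cow term. They treat the 4 arrays of a cow as independent and leave out the pairing, so their p-values do not measure the spread between cows. The fits with the cow as a replicate block take the pairing into account. Every one of the 9 genes was named in every comparison. Other pathway genes were named where their unadjusted p was under 0.05, a choice made after their values were seen, and the likeness rule took the 3 highest correlations.

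Alternatives changed the filter (none, or elements well above background on every array), the scaling (quantile), the background correction (normexp with an offset of 50), the source (deposited log2 values) or the test (the methods' t-test). Others added a block (replicate number, slide or scan session), fitted the 32 arrays together, took the cow as a random block, or left out each replicate or both arrays of slide 1. Leaving out the 2 arrays against their labels was added after the data were seen.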

Additional observations from a re-analysis of the deposited data

Results flagged for a closer look

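In 4 groups a single array stood apart from the other 3, by a gap above Dixon's 95% critical value for 4 samples. ISG15 was at -0.47 in CAR ipsilateral non-RB 4, against 0.71 to 0.86 in the other cows. MX2 was at -7.09 in ICAR ipsilateral RB 1, against -6.45 to -6.35. IRF2 was at -4.81 in ICAR contralateral non-RB 1, an array of slide 1, against -6.02 to -5.82. IFNAR1 was at -5.47 in ICAR ipsilateral RB 2, against -6.13 to -6.12. These are 4 of 72 groups, and chance flags about 1 in 20, or 3.6 of 72.

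The RB difference of MX2 differed between CAR and ICAR by -0.51 (exact permutation p = 0.029 over 4 against 4 cows, the smallest possible, and 0.51 after adjustment over 18 tests). It was -0.39 without the 2 arrays against their labels, and 0.07 with normexp background correction. The cause of these differences was not tested.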

How the results depend on the processing

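Under the 155 alternatives of the 9 comparisons, the number of the 9 genes that passed the adjusted test stayed at 0, also in the fit with the replicate number as a block and with the cow as a replicate block. The smallest adjusted p of a gene was 0.17. Of 1391 alternative values of single genes, 137 had the opposite sign and 18 moved by at least the median SD of the gene. Over the replicates left out, the whole-uterus difference of IFIH1 ranged from -1.66 without RB 1 to -0.64 without non-RB 3, and that in ICAR contralateral from -2.58 to -1.57. Same-numbered arrays of RB and non-RB cows come from different cows. Deviations of same-numbered arrays correlated above 0.1 in 22 of 24 pairs within RB and 21 of 24 within non-RB cows, and between RB and non-RB cows in 11 of 16, with a mean r of 0.14. For CAR against ICAR the elements that passed numbered 174, 64 with normexp, 531 with the session and 1086 with the cow as a replicate block, and over the replicates left out they ranged from 0 to 915, the latter without RB 3 and 717 without non-RB 2. Signal over background limits the ligands most, whose elements were mostly not well above background. The 2 arrays against their labels decided how IFIH1 differed between compartments and horns (0.57 to 0.05 and 0.57 to -0.06).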
